A study of Mus musculus with 22 samples.

Results

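The genes of the major histocompatibility complex (MHC) that present peptides to T cells were followed across 22 azoxymethane-induced colon tumours. Members were every named probe set whose gene symbol begins with H2-, the mouse MHC prefix, together with B2m, Ciita, Tap1, Tap2 and Tapbp. This gave 40 of the 19505 named genes on the array. Of these, 29 belong to class I and its pathway, 10 to class II and its pathway, and 1, H2-Ke6, is a steroid dehydrogenase gene of the MHC region that presents no antigen. The invariant chain gene Cd74, which the rule also names, has no probe set under its name here and was not analysed. Each member had 1 probe set, and 38 of the 40 lie on chromosome 17.

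All tumours came from male FVB/N mice given azoxymethane, a colon carcinogen. Control mice (n = 6) ate a low-fat diet with 10% of energy from fat. Obese mice (n = 5) ate a high-fat diet with 60% of energy from fat. Obese mice treated with sulindac (n = 6), a cyclooxygenase inhibitor, ate the same high-fat diet, and formerly obese mice (n = 5) had been moved off high-fat food onto the low-fat diet and received no sulindac. By their titles the tumours come from 22 different mice, and the sulindac tumour called Mouse_X has no number. Ages, doses and the length of each regimen were not used here. The labels name no separate litters or batches, so p-values measure the spread between these mice.

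Class I molecules are made by nearly all nucleated cells. They pair a heavy chain, such as the products of H2-K1 and H2-D1, with beta-2-microglobulin (B2m), and the peptides they carry are pumped into the endoplasmic reticulum by Tap1 and Tap2 and loaded with the help of tapasin (Tapbp). Class II molecules pair an alpha and a beta chain, such as those of H2-Aa and H2-Ab1, and are made mainly by dendritic cells, macrophages and B cells under the control of the transactivator Ciita. H2-DM exchanges the class II peptides and H2-O restrains that exchange, mostly in B cells. Interferon gamma raises both classes, and intestinal epithelium can make class II under inflammation.

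Promoters of both classes are known to share an X2 box and a Y box at a fixed distance. The stretches that hold this arrangement are shown because members of both classes moved together over the tumours described here. Whether the arrangement bears on that movement was not tested. RefSeq sequences of GRCm38.p6, each running from 250 bases before to 50 bases after a gene start, were on hand for 32 of the 40 members. They were searched on both strands for TGANG followed, after a spacer of 19 to 21 bases, by ATTGG. A gene counted if any of its promoters matched. This pattern, chosen after the sequences had been read, was present in 8 of the 32 members. It was present in 1.06% of all 27025 genes with a promoter, and in 0.947% of their 32851 promoters. Its ATTGG part alone was present in 29 of the 32 members and in 41.1% of all genes with a promoter. In the B2m promoter (chr2:122147437-122147686, plus strand) the capitals mark GAAA repeated after 2 bases, the letters of an interferon-stimulated response element, and then the TGANG and ATTGG pair.
B2m: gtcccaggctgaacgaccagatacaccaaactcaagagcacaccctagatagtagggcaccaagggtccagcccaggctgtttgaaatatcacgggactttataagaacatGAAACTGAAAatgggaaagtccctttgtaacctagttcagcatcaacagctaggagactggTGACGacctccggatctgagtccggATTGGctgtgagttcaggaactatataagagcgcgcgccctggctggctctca

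The other 7 members with the pattern are set out with TGANG and ATTGG in capitals, class I first. H2-K1 lies at chr17:34000354-34000410 on the minus strand, H2-D1 at chr17:35262971-35263027 on the plus strand and H2-M3 at chr17:37270166-37270222 on the plus strand. H2-Aa lies at chr17:34287862-34287919 on the minus strand, H2-DMb1 at chr17:34153083-34153139, H2-DMb2 at chr17:34145112-34145168 and H2-Eb1 at chr17:34305762-34305817, all 3 on the plus strand.
H2-K1: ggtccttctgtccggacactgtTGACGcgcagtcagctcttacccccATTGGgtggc
H2-D1: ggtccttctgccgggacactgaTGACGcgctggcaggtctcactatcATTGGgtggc
H2-M3: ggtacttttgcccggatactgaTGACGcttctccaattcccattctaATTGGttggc
H2-Aa: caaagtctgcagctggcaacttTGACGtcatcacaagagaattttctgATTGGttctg
H2-DMb1: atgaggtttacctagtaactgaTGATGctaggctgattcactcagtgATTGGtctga
H2-DMb2: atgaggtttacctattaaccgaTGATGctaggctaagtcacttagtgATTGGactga
H2-Eb1: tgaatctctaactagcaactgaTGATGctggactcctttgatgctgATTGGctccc

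The class I genes and H2-Aa read TGACG, while the other class II genes read TGATG. In 6 of the 8 promoters the spacer was 20 bases long, and ATTGG began 16 to 90 bases before the gene start. GAAA, any 2 bases and GAAA were found in B2m, H2-T22 and H2-T23, or 3 of 32 members, against 3.99% of all genes with a promoter. These are matches of letters in a reference mouse genome and show no binding. FVB/N mice carry another MHC haplotype, q, and whether the array probes match its alleles was not tested.

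Levels were the deposited values for 22203 probe sets per array, read as log2, which ran from 3.34 to 19.49. Array medians lay between 6.67 and 6.83, and the correlation between arrays ranged from 0.947 to 0.988. The epithelial marker Epcam lay between 16.67 and 17.43 in every tumour, so the labelled epithelial tissue was present in each. A probe set's level cannot be set against that of another gene, so each member was followed against its own mean. Of the 40 members, 18 had a mean above that of the median probe set, 13 of class I and 5 of class II (Ciita, H2-Aa, H2-Ab1, H2-DMa and H2-DMb1). Class I heavy chain genes are near-identical copies of each other, so the value of a single H2-K, H2-D, H2-Q or H2-T gene is uncertain and may hold signal from its relatives.

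Members of both classes varied more between tumours than most genes did. Their SD over the 22 tumours had a median of 0.55 log2 units, against 0.35 for all probe sets and 0.40 for those above the median level, and 14 of 40 members lay above 0.73, the ninth decile of all probe sets. The median was 0.80 for class II and 0.51 for class I. Tap1 had the largest SD, 1.37, and ran from 8.49 to 13.35. H2-Ob followed with 1.24 and H2-Q5 with 1.22. At the other end, H2-M1, H2-M10.1 and H2-Bl had SDs of 0.21 to 0.22 and low levels in every tumour.

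**Figure D1:**
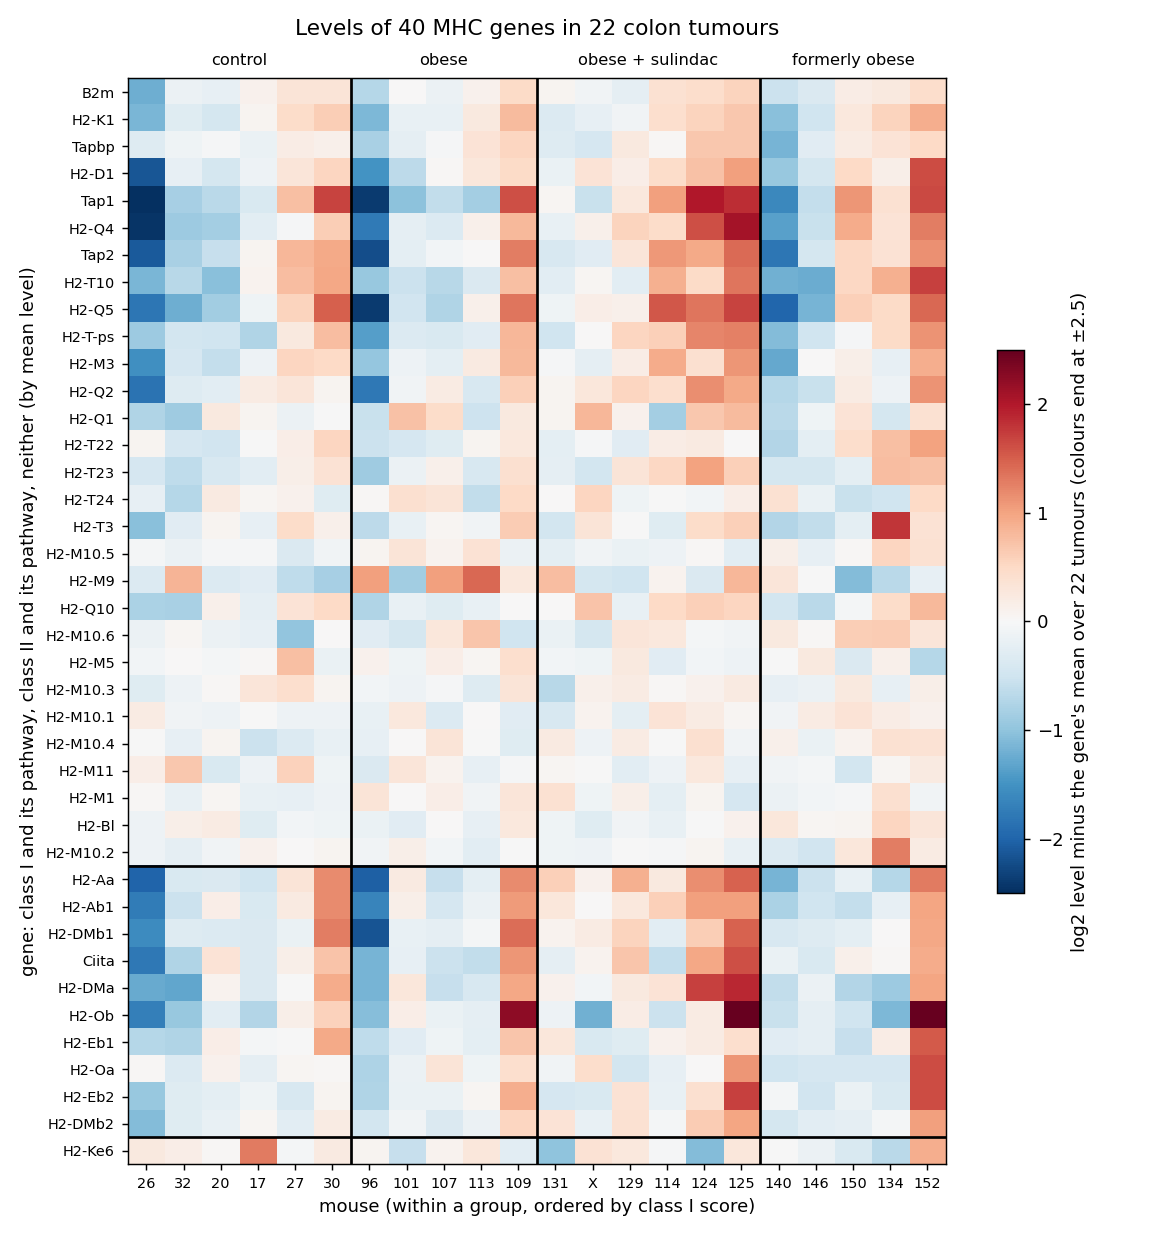
Each cell gives the log2 level of 1 of the 40 genes in 1 of the 22 tumours minus that gene's mean over all tumours; columns are mice grouped by regimen and ordered by class I score, rows are genes grouped by class and ordered by mean level. The columns of control Mouse_26 and obese Mouse_96 are low, and those of sulindac Mouse_125 and formerly obese Mouse_152 high, through most bright members of both classes.

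A class score, the mean over the members of a class of their log2 level minus each one's own mean, summarised every tumour. Class I scores ran from -0.81 to 0.64 and class II scores from -1.28 to 1.44. The lowest tumour in both was control Mouse_26 (class I -0.81, class II -1.28), and the next lowest was obese Mouse_96 (-0.73 and -1.18). Formerly obese Mouse_152 (0.64 and 1.42) and sulindac Mouse_125 (0.59 and 1.44) were the highest. The extremes thus came from all 4 regimens, with a high tumour among obese mice (Mouse_109, 0.44 and 1.05) and among controls (Mouse_30, 0.29 and 0.71).

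Class I and class II scores rose and fell together, with a Pearson r of 0.860 and a Spearman rho of 0.745 over 22 tumours. With group means removed r was 0.842, and in 18 of 22 tumours both scores lay on the same side of 0. The points share arrays and the members were chosen with results known, so no p is given. A few tumours departed from the shared course. Formerly obese Mouse_134 ranked 5 of 22 in class I and 18 in class II, with a class II minus class I score of -0.70. Class II also lay below class I in formerly obese Mouse_150 (-0.51), control Mouse_26 (-0.47), obese Mouse_96 (-0.46) and sulindac Mouse_114 (-0.33). Class II stood above class I in sulindac Mouse_125 (0.84), formerly obese Mouse_152 (0.78) and obese Mouse_109 (0.61). Over the 18 members above the median probe set, which leave out dim class II genes such as H2-Oa, H2-Ob and H2-Eb2, the last 3 differences were 0.31, -0.06 and 0.33. Those of Mouse_26 and Mouse_96 were then -0.12 and -0.21, and that of Mouse_134 -0.62.

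**Figure D2:**
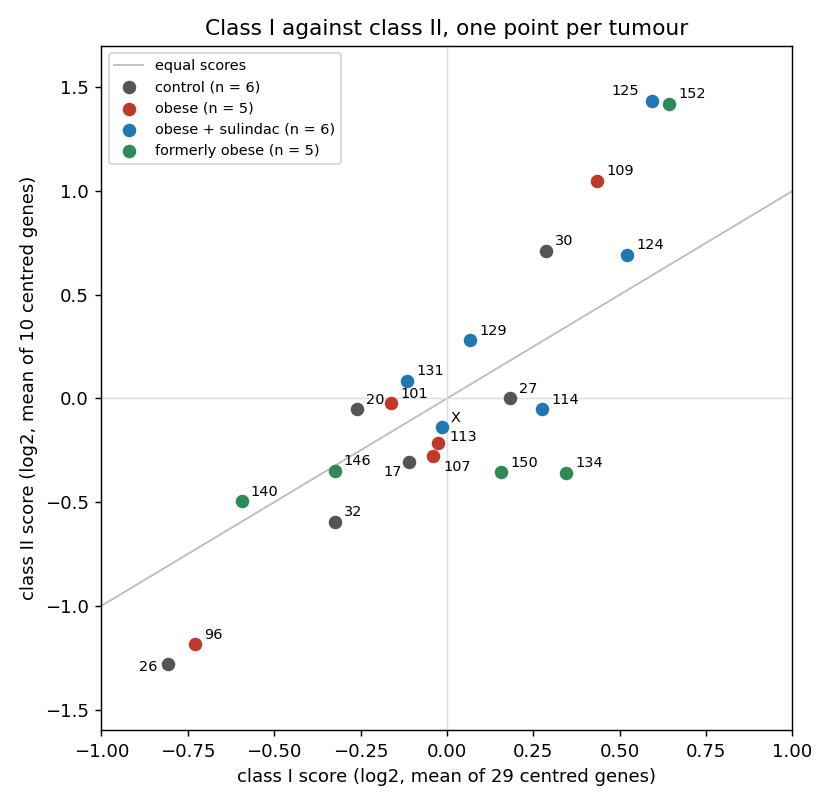
Each point is 1 tumour, with its class I score (x) and class II score (y) in log2 units and its mouse number; the grey line marks equal scores and colours give the regimen. Mouse_26 and Mouse_96 sit at the lower left, Mouse_125 and Mouse_152 at the upper right, and Mouse_134 and Mouse_150 below the line.

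Among class I genes, B2m, the light chain shared by all class I molecules, lay near the top of the measured scale in every tumour. Control tumours ran from 17.55 to 19.09 with a median of 18.75. The 5 obese tumours were at 18.06, 18.62, 18.78, 18.87 and 19.24. Sulindac tumours ran from 18.55 to 19.33, and the formerly obese were at 18.23, 18.40, 18.95, 19.01 and 19.21. Control Mouse_26 stood alone at the bottom, and the 4 groups overlapped. Whether the probes for B2m near the top of the scale were close to saturation was not tested.

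H2-K1, a classical heavy chain gene, ran from 14.53 to 16.29 in control and from 15.32 to 16.35 in sulindac tumours. Obese tumours were at 14.55, 15.48, 15.48, 15.92 and 16.47, and formerly obese tumours at 14.62, 15.18, 15.93, 16.22 and 16.58. Each of the control, obese and formerly obese groups held a tumour below every sulindac tumour and, in the obese and formerly obese groups, one above. H2-D1, the other classical heavy chain gene, had group means of 11.69 ± 0.94 in control, 11.76 ± 0.81 in obese, 12.46 ± 0.42 in sulindac and 12.21 ± 0.98 in formerly obese tumours (SD, n = 6, 5, 6 and 5). The narrowest spread of H2-D1 was that of the sulindac group, and its level in control Mouse_26, 9.90, was the lowest of all.

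Tap1, which encodes a subunit of the peptide pump, had the widest range of the class I members. Control tumours ran from 8.49 to 13.04 with a median of 10.82, and sulindac tumours from 10.80 to 13.35. Obese tumours were at 8.96, 10.32, 10.50, 10.73 and 12.96, and formerly obese tumours at 9.74, 10.76, 11.72, 12.45 and 12.99. Thus 4 of 5 obese tumours lay below every sulindac tumour, while obese Mouse_109 lay above most of them. Tap2, the partner subunit, ran from 7.86 to 11.50 over all tumours, and Tapbp from 13.20 to 15.05. H2-Q4, a gene of the Qa region, ran from 7.71 in control Mouse_26 to 12.24 in sulindac Mouse_125.

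**Figure D3:**
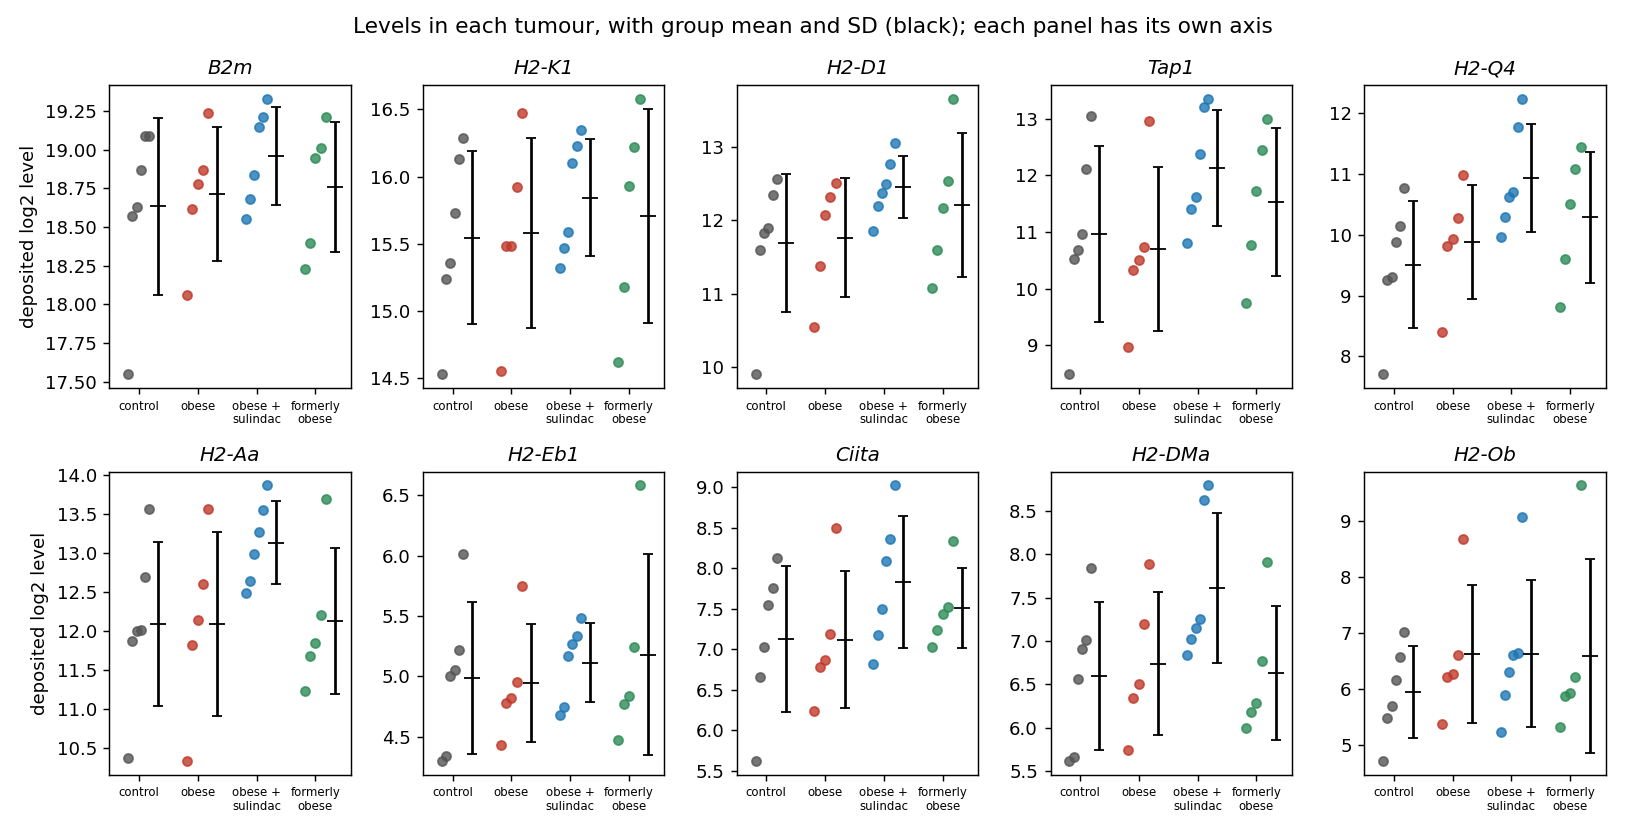
Deposited log2 levels (y) of 10 members in each tumour by regimen (x), with the group mean and SD in black (n = 6, 5, 6 and 5); each panel has its own axis. H2-Aa lay between 12.49 and 13.87 in sulindac tumours and reached down to 10.34 in obese and 10.38 in control tumours, and H2-Ob was high in single tumours of 3 regimens.

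In class II, H2-Aa, the alpha chain of I-A, ran from 10.38 to 13.57 in control and from 12.49 to 13.87 in sulindac tumours. Obese tumours were at 10.34, 11.82, 12.14, 12.61 and 13.57, and formerly obese tumours at 11.23, 11.68, 11.85, 12.21 and 13.69. In the formerly obese group 4 of 5 tumours lay below every sulindac tumour and Mouse_152 lay high, so the groups overlapped. Its beta chain partner H2-Ab1 ran from 9.33 to 12.26. H2-Eb1, a beta chain gene of I-E, lay below the median probe set, with all 22 tumours between 4.30 and 6.58.

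Ciita, the transactivator of class II genes, ran from 5.62 to 8.12 in control and from 6.81 to 9.02 in sulindac tumours. Obese tumours were at 6.24, 6.78, 6.86, 7.19 and 8.50, and formerly obese tumours at 7.02, 7.24, 7.43, 7.52 and 8.33. Control Mouse_26 was again lowest and sulindac Mouse_125 highest. The peptide exchange genes H2-DMa and H2-DMb1 ran from 5.62 to 8.79 and from 7.01 to 10.65, and H2-DMb2 from 3.63 to 5.75.

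H2-Ob, H2-Oa and H2-Eb2 were high in the 3 tumours with the highest class II scores, Mouse_125 (1.44), Mouse_152 (1.42) and Mouse_109 (1.05). That score includes these genes, and other class II members were high in these tumours too. H2-Ob, the beta chain of H2-O, was at 8.68 in obese Mouse_109, 9.08 in sulindac Mouse_125 and 9.64 in formerly obese Mouse_152, and between 4.72 and 7.02 in the other 19 tumours. H2-Oa was at 5.36, 6.06 and 6.59 in the same 3 tumours, with sulindac Mouse_X at 5.38, and H2-Eb2 at 5.63, 6.44 and 6.36. These were also the 3 tumours with the highest B cell markers: Cd79a, a part of the B cell receptor, was at 8.28, 8.58 and 10.33 there and at most 7.14 elsewhere, and the mean of the 4 measured markers (Ms4a1, Cd79a, Cd79b and Pax5) stood 1.62, 1.83 and 3.03 above its own mean, against at most 0.38 elsewhere. The same 3 tumours also had the highest leukocyte marker scores, 0.85, 1.25 and 1.41, against at most 0.76 elsewhere. The part of B cells or of other leukocytes in the 3 genes' levels was not tested. In bulk tumour RNA, more cells of a type and more RNA per cell cannot be told apart.

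The genes of the H2-M10 cluster, which encode class Ib molecules best known from the vomeronasal organ, stayed low. H2-M10.1 to H2-M10.6 lay between 3.69 and 5.90 in all tumours, and their correlation with B2m was at most 0.44. H2-M9 varied more, from 4.05 to 6.57, without following B2m (r = -0.12). Formerly obese Mouse_134 was the exception among the low genes: H2-M10.2 stood at 5.46 against at most 4.46 elsewhere, and H2-T3, which encodes the thymus leukaemia antigen of intestinal epithelium, at 7.83 against at most 6.67. This tumour also had the highest smooth muscle marker score, 2.21 (next 0.99), and the lowest fibroblast score, -1.58, and whether these go with its class I genes was not tested.

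The 3 main comparisons asked how obesity, a later change of diet, and sulindac bear on tumours. In none did limma call a member, at an adjusted p under 0.05 over all probe sets (0 of 40 members, and 0% of all 22203 probe sets, in each comparison). The F test over the 4 groups also called 0 of 40 and 0% of all probe sets, with 1 member, H2-M10.5, at an unadjusted p under 0.05, against 6.0% (1333) of all probe sets. The obese group is the reference or the tested group in all 3 comparisons, so their values are not independent of each other.

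Sulindac tumours had higher mean levels than obese tumours for 31 of 40 members, against 51.7% of all probe sets, but no difference passed the test. All 10 class II members and 21 of 29 class I members lay higher. The median difference was 0.57 log2 units for class II and 0.19 for class I, against 0.01 for all probe sets. Over members above the median probe set alone, the scores shifted by 0.69 (class I) and 0.81 (class II, H2-DMa included). Their difference then shifted by 0.12, less than its SD in sulindac (0.32) or obese tumours (0.30). The medians alone therefore do not show that class II moved more than class I. Over all members the class II score shifted by 0.51 (group means 0.38 ± 0.59 and -0.13 ± 0.80, SD). The class I score shifted by 0.33 (0.22 ± 0.29 and -0.10 ± 0.42). Leaving out obese Mouse_96 brought these shifts to 0.25 and 0.17, and leaving out obese Mouse_109 raised them to 0.81 and 0.46. Leukocyte markers were also higher in sulindac tumours for 3 of 4 genes (median difference 0.47; score range -0.84 to 1.25 against -1.07 to 0.85), T and NK cell markers for 6 of 6 (0.29; -0.46 to 1.19 against -1.22 to 0.95), and B cell markers for 2 of 4 (-0.14; -0.53 to 1.83 against -0.56 to 1.62). Macrophage markers were higher for 3 of 5 genes (0.10), dendritic cell markers for 5 of 7 (0.08), and smooth muscle markers for 4 of 4 (0.40; -0.44 to 0.99 against -0.54 to 0.24). None of these markers passed, and the part of such cells in the MHC differences was not tested.

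Tap1, H2-Q5 and H2-Q4 had the largest differences between sulindac and obese tumours. Tap1 differed by 1.43 ± 0.75 log2 units (SE, 95% interval -0.13 to 2.99, limma adjusted p = 0.800), and 2 of 6 sulindac tumours lay above every obese one. H2-Q5, annotated as a transcribed pseudogene, differed by 1.23 ± 0.67, and H2-Q4 by 1.05 ± 0.56. H2-Aa led class II at 1.04 ± 0.53 (interval -0.07 to 2.14, limma adjusted p = 0.787), followed by H2-DMa at 0.87 ± 0.47, H2-Ab1 at 0.74 ± 0.45, Ciita at 0.71 ± 0.45 and H2-DMb1 at 0.70 ± 0.49. By unadjusted p the foremost higher members were H2-Q10 (0.65 ± 0.28), H2-Q2 (0.86 ± 0.41) and H2-T-ps (0.83 ± 0.42). The first 2 had an unadjusted p under 0.05, so 2 of 40 members did, against 3.07% of all probe sets. Among lower members H2-M10.5 (-0.28 ± 0.13) had one, or 1 of 40 against 3.48% of all probe sets. H2-M9 (-0.51 ± 0.38) and H2-M1 (-0.17 ± 0.14) came next.

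B2m and H2-K1 had smaller differences. B2m was 0.25 ± 0.26 higher and H2-K1 0.26 ± 0.37 higher in sulindac tumours, with intervals from -0.30 to 0.79 and from -0.50 to 1.03. H2-D1 differed by 0.69 ± 0.46, Tap2 by 0.76 ± 0.60, H2-M3 by 0.45 ± 0.39, H2-T23 by 0.47 ± 0.30 and H2-DMb2 by 0.45 ± 0.27. H2-Eb1 differed by 0.17 ± 0.34. The differences of Tapbp (0.19 ± 0.28), H2-Oa (0.19 ± 0.33) and H2-Ob (0.00 ± 0.72) changed sign when single tumours were left out, and that of H2-Ob also under both other scalings of the arrays and with array weights. Of the 18 members above the median probe set, 18 had their highest group mean in sulindac tumours, against 29.5% of all probe sets of that brightness. These members moved together, as 16 of the 17 other than B2m correlated with B2m at r of at least 0.7. Counts of members are therefore not counts of separate observations. Without formerly obese Mouse_140 the count was 14 of 18. H2-DMa entered the 18 only through its sulindac mean of 7.61, so it is no separate observation of a high sulindac mean. Its other group means, 6.60 (control), 6.74 (obese) and 6.63 (formerly obese), lay below the median probe set at 6.77.

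**Figure D4:**
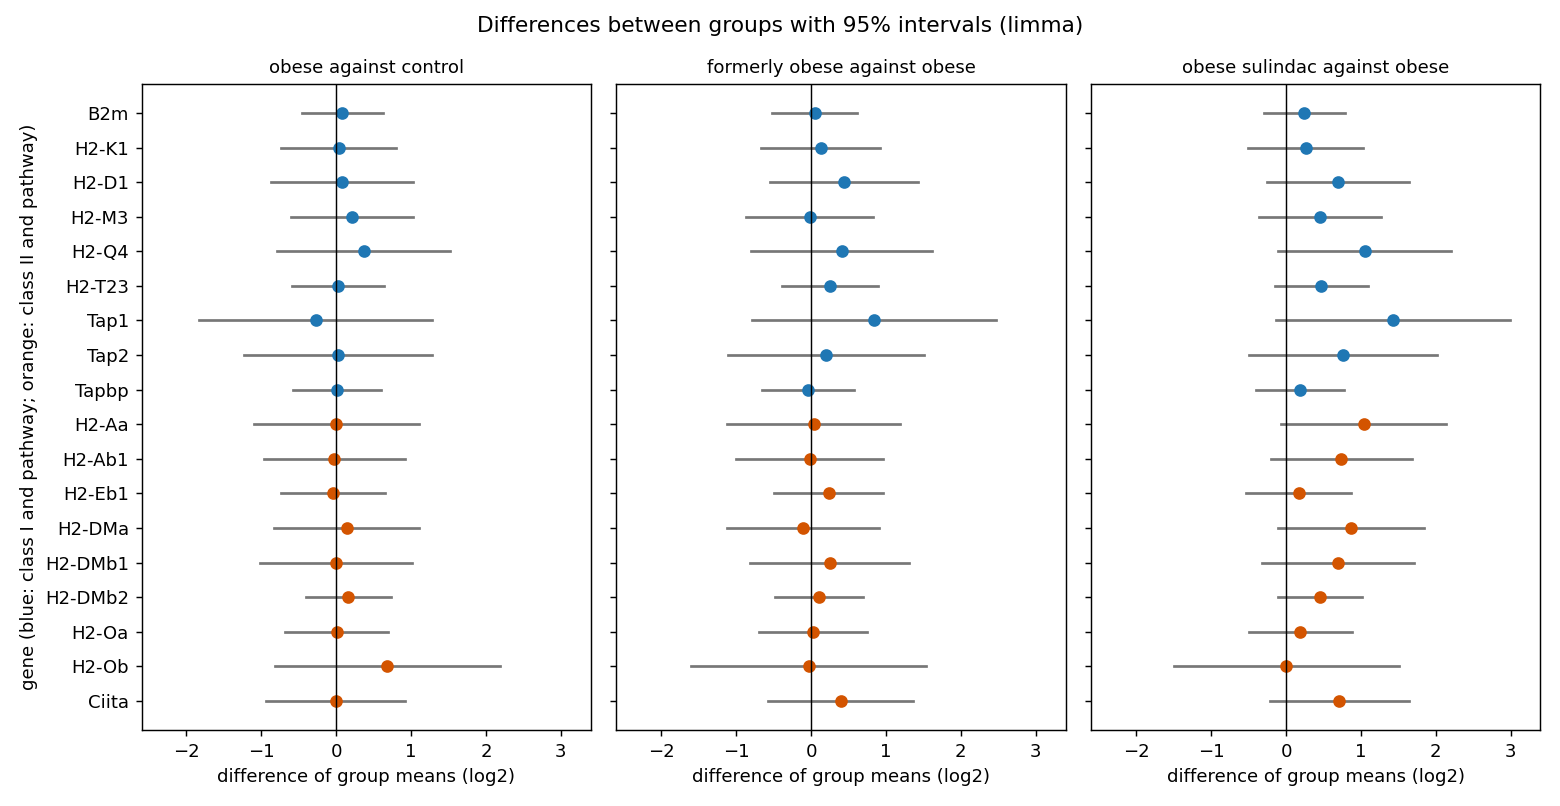
Points are differences of group means in log2 units (x) for the 18 measured members of the fixed list (y), in 1 panel per comparison. Blue marks class I and orange class II, with 95% intervals from limma. In the sulindac panel every drawn point lies at or to the right of 0 and every drawn interval includes 0. In the other panels points fall on both sides. The members that were lower in sulindac tumours, such as H2-M9 (-0.51) and H2-M10.5 (-0.28), are not on the list. H2-Q10, H2-Q2 and H2-M10.5, also not drawn, had sulindac intervals that exclude 0.

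Formerly obese and obese tumours had similar mean class II scores, with a wide spread within each group. The class II score shifted by 0.10 (-0.03 ± 0.81 and -0.13 ± 0.80, SD). This shift turned to -0.26 without formerly obese Mouse_152, the one high tumour of its group, and rose to 0.40 without obese Mouse_109. Class I shifted by 0.15 (0.05 ± 0.50 and -0.10 ± 0.42), and by -0.01 without obese Mouse_96. Means were higher for 29 of 40 members, against 50.7% of all probe sets, and for 16 of 40 without Mouse_152. The median member difference was 0.15 against 0.00 for all probe sets. H2-Bl (0.33 ± 0.14), a class I pseudogene, was the only member of 40 with an unadjusted p under 0.05 among the higher, against 2.77% of all probe sets, followed by H2-M10.6 (0.42 ± 0.23) and H2-M10.1 (0.25 ± 0.15). Among the lower, H2-M9 (-0.91 ± 0.40) alone had one, against 2.91%, followed by H2-M5 (-0.27 ± 0.19) and H2-M1 (-0.13 ± 0.15). All these are dim genes. Leukocyte markers lay lower in formerly obese tumours for 3 of 4 genes (median difference -0.22; score range -0.86 to 1.41 against -1.07 to 0.85), with none passing.

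Between obese and control tumours the direction of the members depended on single tumours. Means were higher in obese tumours for 24 of 40 members, against 49.1% of all probe sets. This count was 11 without obese Mouse_109, 12 without control Mouse_26 and 32 without control Mouse_30. The median member difference was 0.02, and the scores shifted by 0.07 (class I, -0.10 ± 0.42 and -0.17 ± 0.39, SD) and 0.12 (class II, -0.13 ± 0.80 and -0.25 ± 0.66). Both shifts turned without Mouse_109, to -0.07 and -0.17. The highest member by p was H2-M9 (0.84 ± 0.38, interval 0.05 to 1.63, limma adjusted p = 0.9998), the only one of 40 with an unadjusted p under 0.05, against 1.82% of all probe sets. Its exact permutation p was 0.0909 (two-sided). That test put H2-M1 (exact p = 0.0303) and H2-M10.5 (exact p = 0.0368) under 0.05, with 0 of 40 passing after adjustment. The share of all probe sets under 0.05 by that test was not counted. H2-M9 stood at 4.26, 5.39, 6.15, 6.15 and 6.57 in obese tumours and from 4.30 to 5.98 in control tumours, so 3 of 5 obese tumours lay above every control. H2-M10.5 (0.25 ± 0.13) and H2-M1 (0.25 ± 0.14) followed. Among lower members 0 of 40 had an unadjusted p under 0.05, against 2.21% of all probe sets, and H2-Ke6 (-0.40 ± 0.31), H2-M11 (-0.17 ± 0.18) and H2-T22 (-0.17 ± 0.26) led.

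The class II minus class I score asked whether one class moved apart from the other. It shifted by 0.19 between sulindac and obese tumours (0.16 ± 0.40 and -0.03 ± 0.42, SD), by -0.05 between formerly obese and obese tumours (-0.07 ± 0.58 in the former) and by 0.05 between obese and control tumours (-0.08 ± 0.33 in the latter). Each shift is smaller than the SD within a group. Leaving out 1 tumour at a time gave 0.05 to 0.35, -0.26 to 0.11 and -0.11 to 0.16.

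The secondary comparisons gave no call either (limma, 0 of 40 members and 0% of all probe sets in each). Sulindac against control tumours had 5 members higher at an unadjusted p under 0.05 (H2-DMa, H2-DMb2, H2-M10.4, H2-Q2 and H2-Q4), or 5 of 40 against 3.11% of all probe sets, and 0 lower, against 3.52%. Formerly obese against control tumours had 4 higher (H2-Bl, H2-M10.4, H2-M10.5 and H2-M10.6), against 2.74%, and 0 lower, against 2.80%. Sulindac against formerly obese tumours had H2-DMa higher, against 3.41%, and H2-Bl and H2-M10.5 lower, against 3.21%.

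Genes that supply class I with peptides followed the class I members over tumours. Of the 10 measured genes of class I loading and peptide supply, 0 passed in any of the 3 main comparisons. In sulindac against obese tumours 7 had higher means (median difference 0.34). The share of all probe sets with higher means there was 51.7%, and 0% passed. Psmb8 and Psmb9, subunits of the immunoproteasome, differed by 1.18 ± 0.81 and 1.12 ± 0.73, and Psme1, of its activator, by 0.40 ± 0.23. The chaperone gene Canx went the other way, at -0.31 ± 0.12, the only one with an unadjusted p under 0.05. Of all probe sets 3.48% were lower at that level. Of the 9 measured genes of class II supply, 0 passed and 5 had higher means (median 0.06), with Ctss, the protease that trims the invariant chain, at 0.57 ± 0.39 and the regulator Rfxap at -0.23 ± 0.19. Of 11 interferon gamma genes 0 passed and 9 had higher means (median 0.23), among them Cxcl9 at 1.22 ± 1.03 and Gbp2 at 1.16 ± 0.72. Ifng itself was at -0.10 ± 0.37. Between formerly obese and obese tumours, 8 of 10, 4 of 9 and 9 of 11 genes of these lists had higher means, against 50.7% of all probe sets. Between obese and control tumours 7, 7 and 6 did, against 49.1%, and in both comparisons 0 passed. Rfxap, at -0.49, was the only one of these genes with an unadjusted p under 0.05 between formerly obese and obese tumours. Of all probe sets 2.91% were lower at that level.

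Over the 22 tumours single members of the same class kept close company. The correlation was 0.958 for H2-Aa and H2-Ab1, the 2 chains of I-A, 0.945 for Tap1 and Tap2, 0.911 for B2m and Tap1, 0.908 for H2-K1 and H2-D1, and 0.810 for H2-DMa and H2-DMb1 (Pearson r). H2-K1 and H2-D1 are alternative heavy chains, and their values may hold signal from each other, which was not tested. Tap1 followed Psmb9 at 0.966 and Psmb8 at 0.953, genes beside it in the MHC region. In all, 14 pairs were tested, 6 of them added after the data were seen, because Cd74 and other planned partners are not named here. The largest adjusted permutation p among the 8 planned Pearson correlations was 4.308e-05 (Benjamini-Hochberg over the 14), and 1e-05 was the smallest unadjusted p the permutations could give. The added pairs, H2-K1 and H2-D1, H2-Ob and Ms4a1, Ciita and H2-Aa, and H2-Aa with B2m, Ptprc or Irf1, were picked with values in view and are given as descriptions with no p. Spearman rho was 0.918 for H2-Aa and H2-Ab1, 0.907 for Tap1 and Tap2, and 0.747 for H2-DMa and H2-DMb1 (adjusted permutation p of 2e-05, 2e-05 and 0.0001145). Without the 2 tumours farthest from the median of the first gene the same 3 pairs stood at r = 0.925, 0.913 and 0.800.

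Members of different classes, and other genes, also moved together. H2-Aa and B2m correlated at r = 0.835 (rho 0.770), which fell to 0.717 without Mouse_96 and Mouse_26. Ciita and H2-Aa correlated at 0.863, and within the 6 control and the 6 sulindac tumours at 0.911 and 0.896. H2-Aa followed the leukocyte gene Ptprc at 0.899 (0.835 without the same 2 tumours), and B2m did so at 0.819 (0.675 without them). Irf1, an interferon-induced transcription factor, correlated with Tap1 at 0.800 and with H2-Aa at 0.713. H2-Ob and the B cell gene Ms4a1 had r = 0.835 but rho = 0.553, and r = 0.659 without Mouse_152 and Mouse_125. With group means removed the 14 pairs kept r between 0.788 and 0.965.

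**Figure D5:**
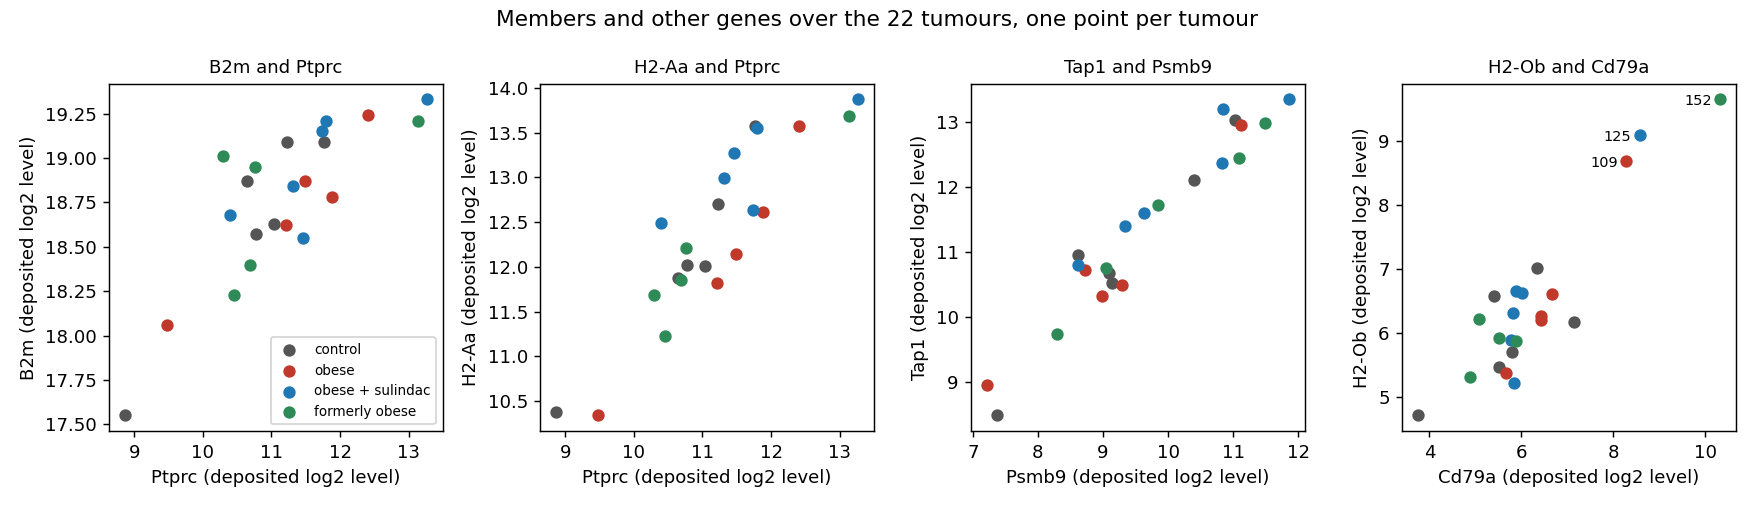
Each point is 1 of 22 tumours, coloured by regimen, with log2 levels of B2m and H2-Aa against the leukocyte gene Ptprc, of Tap1 against the immunoproteasome gene Psmb9, and of H2-Ob against the B cell gene Cd79a. The first 3 panels form bands that run through all regimens, whereas in the last panel Mouse_109, Mouse_125 and Mouse_152 stand apart from the other 19 tumours.

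The correlation with B2m differed between bright and dim members. Of the 17 other members above the median probe set, 16 correlated with B2m at r of at least 0.7, the exception being H2-Q1 at 0.44. Of the 22 dimmer members 3 did so, H2-Q10 (0.77), H2-T23 (0.71) and H2-DMb2 (0.78). The dim class II genes H2-Eb1 (0.66), H2-Eb2 (0.64) and H2-Ob (0.63) lay just under that level, and H2-Oa at 0.45. With H2-Aa, 6 of the 22 dimmer members reached it, among them H2-DMb2 (0.88), H2-Ob (0.77), H2-Eb2 (0.75) and H2-Eb1 (0.71). H2-Ke6, which is not an antigen presentation gene, stood at -0.11 with B2m. The genes with the promoter pattern shown above, B2m aside, correlated with B2m at 0.66 to 0.94, and members without it reached similar values, such as Tap1 (0.91) and H2-Q4 (0.90).

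Set beside marker lists of other cells, the class II score correlated with T and NK cell markers at r = 0.911 (rho 0.840), leukocyte markers at 0.895 (rho 0.862) and B cell markers at 0.840 (rho 0.807). Dendritic cell markers stood at 0.807 (rho 0.771) and macrophage markers at 0.775 (rho 0.807), so the order of the lists differs between r and rho. The class I score had its highest values with class I peptide supply (0.922), T and NK cell markers (0.857) and interferon gamma genes (0.837). Epithelial markers stood at 0.448 with class II and 0.407 with class I, fibroblast markers at 0.03 and -0.26. These describe 22 tumours that share arrays and cell mixtures, and no p is given. The class II minus class I score over all members, too, went with leukocyte markers (r = 0.792, rho 0.731). The class II score has the wider spread (SD 0.71 against 0.40), so their difference holds part of the shared course. In Mouse_125, Mouse_152 and Mouse_109, highest in leukocyte markers, it fell from 0.84, 0.78 and 0.61 to 0.31, -0.06 and 0.33 over the brighter members. Its correlation over those members was not computed. The lists were not of equal brightness or size, and the part of each cell type was not tested.

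By likeness over the 22 tumours, the non-member genes nearest to B2m were Irgm2 (r = 0.875), Psmb9 (0.871), Ctss (0.871), Psmb8 (0.870) and Tlr3 (0.841). Those nearest to H2-Aa were Ctss (0.925), Mpeg1 (0.925), Lat (0.924), Il2rb (0.910) and Lcp1 (0.901). For H2-Ob, added after its values were seen, they were Lax1 (0.944), Pou2af1 (0.913), Cd22 (0.909), Cd79a (0.907) and Slamf6 (0.905).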

How the data were processed

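Total RNA of 22 tumours was hybridised to Clariom S arrays, with Transcriptome Analysis Console 4.0 named in the submitters' processing notes. The deposited log2 levels by the authors, given with 2 decimals, were used as they are; log base 2 was read from their range. How the values were summarized, background-corrected and normalized is not given in the sources used here. Control probes, scans and detection calls were not used here, so no level is called above background. Of 22203 probe sets 19572 carry 1 symbol and 2631 are unnamed here.

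Groups came from the diet and sulindac labels, and nothing pairs the mice. A mean for each of 4 groups was fitted to all probe sets with limma 3.58.1 in R 4.3.3 (lmFit, eBayes, two-sided, Benjamini-Hochberg over 22203 probe sets, threshold 0.05) and tested on simulated data. With 5 or 6 mice a group, the number of arrays limits the precision. Values after ± are SEs for differences and SDs for groups. Scores and counts of means have no test. Pairs were tested with 100000 permutations. Alternatives were other scalings, filters and fits, leaving out each mouse, and an exact permutation test.

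The named members are a fixed list of class I and II genes, in each main comparison the 3 smallest p in each direction, the 3 highest and lowest SDs, and the nearest genes to B2m and H2-Aa; H2-Aa took the place of Cd74. From each pathway list up to 3 genes with the smallest p were named. Members and lists were chosen with earlier results of these data known, and any other gene was chosen after its values were seen.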

Additional observations from a re-analysis of the deposited data

Results flagged for a closer look

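Each of 140 sets of values (a gene or class score in a regimen) was examined for a tumour standing far from the others by Dixon's gap criterion, which chance meets in about 1 of 20. It was met in 14. Mouse_26 was the lowest control tumour for B2m (17.55, next 18.57), H2-D1 (9.90, next 11.59) and H2-Q2 (6.36, next 7.87). Among formerly obese tumours Mouse_152 was the highest for H2-DMb2 (5.75, next 4.67), H2-Oa (6.59, next 4.52), H2-Ob (9.64, next 6.22) and the class II score (1.42, next -0.35). Mouse_125 was the highest sulindac tumour for H2-Ob (9.08, next 6.65). Mouse_134 was the highest formerly obese tumour for H2-M1 (4.84, next 4.42). Control Mouse_27 was lowest for H2-M10.5 (4.99, next 5.21) and H2-M10.6 (3.96, next 4.74) and highest for H2-M5 (5.50, next 4.79). Control Mouse_32 was highest for H2-M9 (5.98, next 4.84), and control Mouse_17 for H2-Ke6 (7.02, next 5.96).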

How the results depend on the processing

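No alternative made a call among the 40 members in a main comparison or the F test: over 30 settings per main comparison the smallest adjusted p of a member was 0.569 (limma). The exact permutation test can give no p below 0.002165 with 6 against 5 mice and 0.007937 with 5 against 5. It gave 0 adjusted calls, with 2, 1 and 3 members at an unadjusted p under 0.05 (order: obese, diet switch, sulindac). The share of all probe sets under 0.05 by the exact test was not counted, so nothing is read from these numbers. Among 36 differences of named members, 33 kept their direction under all of 29 or 30 alternatives. For sulindac against obese, H2-Ob was at -0.001 after quantile normalization, -0.0087 with equal array medians, -0.0662 with array weights, and -0.488 to 0.5142 leaving out a mouse; H2-Oa ran from -0.002 (without Mouse_125) to 0.31 and Tapbp from -0.0083 (without Mouse_96) to 0.3317. Members with higher means, limited to the 18 above the median probe set, were 11, 13 and 18 in the 3 comparisons; leaving out a mouse, of 40, they were 11 to 32 for obese against control and 16 to 33 for formerly obese against obese. Without the 3 tumours highest in B cell markers, an alternative chosen after seeing the data, the class II shifts were -0.17, 0.04 and 0.60, and without H2-Oa, H2-Ob and H2-Eb2, also chosen then, 0.03, 0.13 and 0.67. Taking the 18 brighter members raised the sulindac shifts to 0.69 (class I) and 0.81 (class II). The class II value includes H2-DMa, which is among the 18 only through its sulindac mean. No paired analysis was possible because the labels give no shared replicate numbers. Whether dim members such as H2-M10 lay above background was not tested.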
